A study of Mus musculus with 14 samples.

Results

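The 9 genes described here belong to aldo-keto reductase family 1: Akr1b7, Akr1b8 and Akr1b10, Akr1a1, and Akr1c6, Akr1c12, Akr1c13, Akr1c14 and Akr1c20. They were found by gene symbol and are 9 of the 29923 genes in the expression table. Akr1b7 was chosen by its own values, because it fell with Aoah in both tumour models, and the other 8 genes were taken as its relatives. The values of Akr1b7 with and without Aoah are therefore given as a description, with no test, and the tests of the Aoah effect cover the other 8. All 9 reached the level needed for testing, which was 1 TPM in at least 3 tumours (TPM is a level scaled for transcript length and for the total of the library).

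Bulk RNA was measured in 14 hepatocellular carcinomas of C57BL/6 mice, which arose after transposon plasmids and the SB100 transposase were injected into the tail vein under pressure. Luc tumours with Aoah (n = 4) and Luc tumours with empty vector (n = 4) received the plasmid MYC-Luc, which carries MYC and luciferase. LucOS tumours with Aoah (n = 3) and LucOS tumours with vector (n = 3) received MYC-LucOS, which adds the OVA, SIN and SIY antigens. Aoah is acyloxyacyl hydrolase, an enzyme that removes acyl chains from bacterial lipopolysaccharide; it came from the plasmid PKT2/CLP-Aoah, and the controls had PKT2/CLP-Vec. A plasmid for truncated beta-catenin, pT3-N90-CTNNB1, is listed for the study without saying which tumours received it. Age and sex were not given, an anti-PD1 protocol is listed without saying that any of these tumours was treated, and nothing says that each tumour came from a separate animal. The p-values thus measure only the spread between these samples. The plasmids enter hepatocytes, but the RNA is that of the whole tumour, so fewer cells of a type and less RNA per cell cannot be told apart.

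Aldo-keto reductases use NADPH to turn aldehydes and ketones into alcohols. The Akr1b enzymes resemble aldose reductase, which makes sorbitol from glucose, and clear reactive aldehydes such as those formed when lipids are oxidised. Akr1a1 is a widely expressed aldehyde reductase of the ascorbate route in mice. The Akr1c enzymes are hydroxysteroid dehydrogenases, which in liver interconvert active and inactive forms of steroid hormones and related ketones. In mouse liver, Akr1b7 is known as a target of nuclear receptors that sense bile acids and foreign compounds.

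Among the other 8 members, Akr1c6, Akr1c14 and Akr1c20 rose with Aoah in both models, and Akr1c13 rose in Luc. The LucOS calls of Akr1c14 and Akr1c20 were lost when certain single tumours were left out and under some processing choices. That of Akr1c6 was kept throughout. The Luc call of Akr1c14 was lost when Luc vector 1 and 3 were left out together (limma adjusted p = 0.0521). Akr1c6 averaged 1410 ± 419 TPM in Luc tumours with Aoah and 138 ± 9.14 TPM in Luc tumours with vector (SD, n = 4 each), a 10.2-fold difference between the means. Akr1b7 moved the other way: it averaged 8.33 ± 2.42 TPM in Luc tumours with Aoah and 86.1 ± 32.0 TPM in Luc tumours with vector. Akr1a1, Akr1b8, Akr1b10 and Akr1c12 did not pass the test in either model.

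The regions before the start sites of 4 members are shown because these genes behaved differently: Akr1b7 fell, its neighbour Akr1b10 was not called, and Akr1c6 and Akr1c14 rose. Each sequence is the 250 bases before the start listed by RefSeq on build GRCm38.p6, 5′ to 3′ on the gene's strand, which is the plus strand for all 4. Capitals mark matches to the motifs searched. The windows are chr6:34412112-34412361 for Akr1b7, chr6:34383997-34384246 for Akr1b10, chr13:4434093-4434342 for Akr1c6 and chr13:4059341-4059590 for Akr1c14.
Akr1b7: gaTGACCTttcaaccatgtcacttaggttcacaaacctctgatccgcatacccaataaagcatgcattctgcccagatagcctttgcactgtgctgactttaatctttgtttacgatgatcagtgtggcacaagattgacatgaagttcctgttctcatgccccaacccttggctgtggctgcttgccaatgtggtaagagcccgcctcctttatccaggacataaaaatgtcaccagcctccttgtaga
Akr1b10: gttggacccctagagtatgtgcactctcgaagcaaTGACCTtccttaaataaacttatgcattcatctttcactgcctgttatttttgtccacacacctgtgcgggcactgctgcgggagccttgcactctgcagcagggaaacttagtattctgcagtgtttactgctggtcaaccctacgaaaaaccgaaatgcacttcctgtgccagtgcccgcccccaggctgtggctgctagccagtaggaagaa
Akr1c6: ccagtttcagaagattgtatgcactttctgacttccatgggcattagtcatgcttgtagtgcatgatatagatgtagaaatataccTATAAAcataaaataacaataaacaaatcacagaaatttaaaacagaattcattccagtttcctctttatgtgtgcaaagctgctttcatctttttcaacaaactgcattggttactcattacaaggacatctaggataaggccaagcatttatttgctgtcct
Akr1c14: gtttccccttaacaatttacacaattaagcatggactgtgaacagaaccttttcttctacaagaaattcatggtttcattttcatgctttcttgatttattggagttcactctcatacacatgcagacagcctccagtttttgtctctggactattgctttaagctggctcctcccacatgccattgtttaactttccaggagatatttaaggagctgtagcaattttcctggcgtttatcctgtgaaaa

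Of the 9 members, 8 had such an entry in the RefSeq table; Akr1c20 had none. Both strands were searched for 5 motifs. The nuclear receptor half-site AGGTCA is carried by 14.0% of the 32851 windows of this length in the table. The antioxidant response element was searched as TGACNNNGC, carried by 10.2% of the windows, and the STAT palindrome as TTCNNNGAA, carried by 7.02%. The HNF1 half-site GTTAAT is carried by 6.43% of the windows. The TATA box was searched as TATAAA, which 12.4% of the windows hold. The half-site stood on the opposite strand 248 bases before the start of Akr1b7 and 215 bases before that of Akr1b10, so it is shared by a gene that fell and one that was not called. The TATA box letters stood 164 bases before the start of Akr1c6, on its own strand, and 159 bases before that of Akr1b8, on the opposite strand. The windows of Akr1a1, Akr1c12, Akr1c13 and Akr1c14 held none of the 5. A match of letters is a description, not a binding site. The windows of Akr1b7 and Akr1b10 were 71.1% identical over 173 aligned bases, and those of Akr1c12 and Akr1c13 were 95.5% identical over 246.

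The members also share much of their transcribed sequence, which bears on how reads were divided among them. Akr1b7 and Akr1b10 transcripts were 84.4% identical, Akr1c6 and Akr1c20 transcripts 90.9%, and Akr1c12 and Akr1c13 transcripts 94.6%. A stretch of 75 bases was taken as a possible read. Only the longest protein-coding transcripts of the members and of Akr1b3, Akr1c18 and Akr1c19 were compared. Of such stretches, 17.3% of those in Akr1c12 and 17.3% of those in Akr1c13 occurred in another of these transcripts. The share was 0.467% in Akr1b8, 0.463% in Akr1b10 and 0 in the other 5 members. The division of RNA between Akr1c12 and Akr1c13 is therefore uncertain. Akr1b7, Akr1c6, Akr1c14 and Akr1c20 shared no stretch of that length within this set. Other transcripts and genes were not searched.

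The targeted gene was checked first. Aoah stood at 283.72 to 685.24 TPM in Luc tumours with Aoah, against 18.57, 0.74, 54.76 and 0.89 TPM in Luc tumours with vector. It stood at 576.03 to 931.15 TPM in LucOS tumours with Aoah, against 1.28 to 3.43 TPM in LucOS tumours with vector. Luc vector 1 and 3 thus held more Aoah RNA than the other vector tumours, though far less than any tumour given Aoah. Small RNA genes took 9.28% of the TPM in Luc Aoah 3 and 1.06 to 2.37% elsewhere. Mitochondrial genes took 16.6% in LucOS Aoah 3 and 3.41 to 8.45% elsewhere. Library depth is unknown, because TPM keeps no depth.

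**Figure D1:**
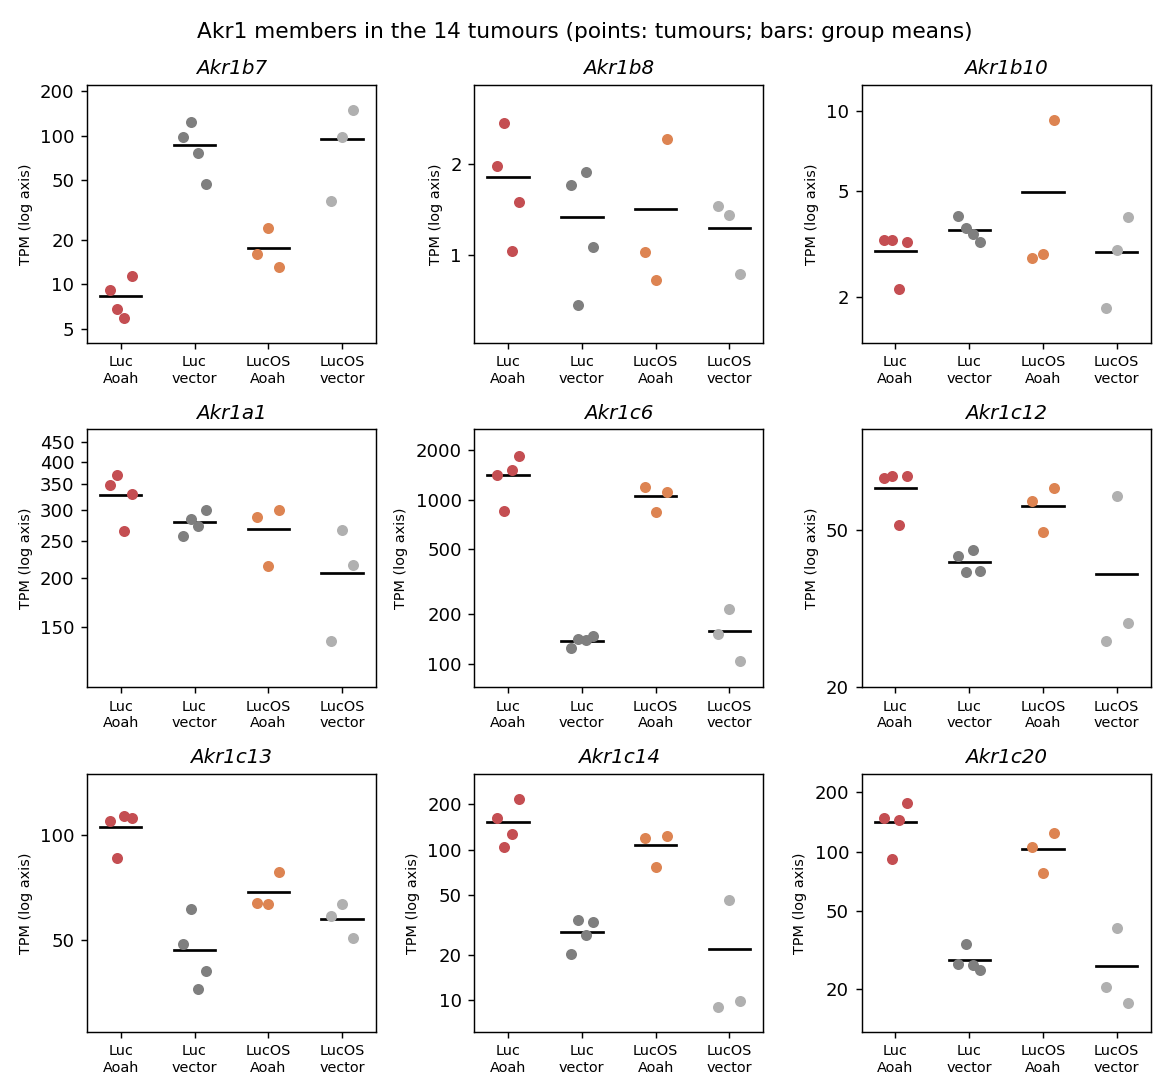
TPM of the 9 Akr1 members in each of the 14 tumours on log axes, with points for tumours and bars for group means. Akr1b7 lies lower with Aoah than with vector in both models, while Akr1c6, Akr1c14 and Akr1c20 lie higher with no overlap.

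Akr1b7, first described as a mouse vas deferens protein and able to reduce aldehydes released in steroid synthesis, stood at 9.23, 6.84, 5.95 and 11.31 TPM in Luc tumours with Aoah. In Luc tumours with vector it stood at 97.47, 123.04, 76.48 and 47.59 TPM. The groups did not overlap, and the log2 change was -3.18 (SE 0.38); the means differed 10.3-fold. Luc vector 1 and 3, with their raised Aoah, had 97.47 and 76.48 TPM of Akr1b7, between the other Luc vector tumours.

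In LucOS tumours with Aoah, Akr1b7 stood at 16.08, 23.84 and 13.1 TPM, and in LucOS tumours with vector at 36.52, 97.13 and 149.18 TPM. These groups did not overlap either, and the log2 change was -2.18 (SE 0.44), with a 5.33-fold difference between the means. The vector tumours were widely spread, and the lowest of them, at 36.52 TPM, lay above the highest tumour with Aoah, at 23.84 TPM. The change in LucOS less that in Luc was 1.00 on the log2 scale (SE 0.59). Both changes chose the gene, so none of these differences was tested. In the authors' deposited table the log2 fold changes of Akr1b7 were -3.14 in Luc and -2.33 in LucOS.

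The neighbours of Akr1b7 did not pass the test. Akr1b10, whose human namesake is often raised in liver cancer, stood at 3.27, 3.28, 2.14 and 3.21 TPM in Luc tumours with Aoah and at 4.02, 3.63, 3.46 and 3.23 TPM in Luc tumours with vector. Its log2 change there was -0.21 (SE 0.29, limma adjusted p = 0.587). In LucOS it stood at 2.81, 2.91 and 9.22 TPM with Aoah and at 1.83, 3.01 and 4 TPM with vector, and the groups overlapped. The value of 9.22 TPM came from LucOS Aoah 3, the tumour with the most mitochondrial RNA; its part in the value was not tested. With that tumour the log2 change was 0.47 (limma adjusted p = 0.654), and without it 0.01.

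Akr1b8, an aldose reductase-like enzyme, was near the level needed for testing. It stood at 1.98, 2.75, 1.03 and 1.5 TPM in Luc tumours with Aoah and at 1.71, 0.68, 1.89 and 1.06 TPM in Luc tumours with vector. The LucOS values were 1.02, 0.82 and 2.43 TPM with Aoah and at 1.45, 1.36 and 0.86 TPM with vector. The groups overlapped in both models, with log2 changes of 0.27 in Luc and 0.08 in LucOS (limma adjusted p = 0.438 and 0.964). Fold changes of so low a gene are understated on the log2(TPM + 1) scale.

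Akr1a1 was the member with the highest mean in both vector groups. It stood at 348.31, 369.1, 265.73 and 330.24 TPM in Luc tumours with Aoah, and at 256.79, 284.3, 273.74 and 301.06 TPM in Luc tumours with vector. For LucOS the values were 287.34, 215.77 and 300.39 TPM with Aoah and at 137.65, 266.36 and 216.58 TPM with vector. The groups overlapped in both models. The log2 change was 0.23 in Luc (SE 0.20, limma adjusted p = 0.398) and 0.41 in LucOS (SE 0.23, limma adjusted p = 0.529). In the authors' deposited table Akr1a1 was called in Luc, with a log2 fold change of 0.50 and an adjusted p of 0.0141, which the limma fit did not call.

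Akr1c6, a liver 17-beta-hydroxysteroid dehydrogenase that interconverts weak and potent androgens and estrogens, stood at 1412.85, 850.25, 1517.38 and 1858.22 TPM in Luc tumours with Aoah. In Luc tumours with vector it stood at 124.8, 140.21, 139.3 and 146.39 TPM, a narrow range. In LucOS tumours with Aoah it stood at 1198.02, 838 and 1113.92 TPM, and in LucOS tumours with vector at 151.52, 216.39 and 103.47 TPM. The lowest tumour with Aoah was several times higher than the highest with vector in both models. The log2 change was 3.29 in Luc (SE 0.25, limma adjusted p = 1.11e-05) and 2.78 in LucOS (SE 0.29, limma adjusted p = 0.00108). The change in LucOS less that in Luc was -0.51 (SE 0.38, limma adjusted p = 0.502). Akr1c6 passed the test under every alternative run in both models, with log2 changes from 3.14 to 3.52 in Luc and from 2.51 to 3.04 in LucOS.

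Akr1c14, a 3-alpha-hydroxysteroid dehydrogenase that acts on dihydrotestosterone, stood at 161.16, 104.36, 126.81 and 216.44 TPM in Luc tumours with Aoah and at 20.2, 33.96, 27.08 and 32.85 TPM in Luc tumours with vector. In LucOS the gene had 118.88, 76.71 and 123.7 TPM with Aoah and at 9.06, 46.41 and 9.83 TPM with vector. The groups did not overlap in either model, and LucOS vector 2 lay well above the other LucOS vector tumours. The log2 change was 2.35 in Luc (SE 0.41, limma adjusted p = 0.00201) and 2.60 in LucOS (SE 0.47, limma adjusted p = 0.0221). The Luc call was lost when Luc vector 1 and 3, the vector tumours with raised Aoah, were left out together (log2 change 2.10, limma adjusted p = 0.0521), and so was the LucOS call (2.60, limma adjusted p = 0.0561), which shares the estimate of the spread. The LucOS call was lost when LucOS Aoah 1 or 3 or LucOS vector 1 or 3 was left out, with limma adjusted p from 0.0671 to 0.104, while the log2 change stayed between 2.21 and 2.51 in these fits. With the replicate number as a block, its limma adjusted p in LucOS was 0.0533, with no filter on low values 0.099, and in a fit of only the LucOS groups 0.184.

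Akr1c20, the neighbour of Akr1c6 and the member closest to it in sequence, stood at 148.98, 91.68, 145.13 and 176.82 TPM in Luc tumours with Aoah and at 26.76, 33.95, 26.56 and 25.06 TPM in Luc tumours with vector. Its LucOS values were 105, 78.19 and 124.22 TPM with Aoah and at 20.5, 41.03 and 16.99 TPM with vector, again with no overlap. The log2 change was 2.25 in Luc (SE 0.27, limma adjusted p = 0.000155) and 2.00 in LucOS (SE 0.31, limma adjusted p = 0.0113). The LucOS call was lost when LucOS Aoah 1, LucOS Aoah 3 or LucOS vector 3 was left out, with limma adjusted p from 0.0532 to 0.0591 and log2 changes of 1.76 to 1.97. It was also lost with no filter on low values (0.0581) and in a fit of only the LucOS groups (0.124). The authors' deposited table called both Akr1c14 and Akr1c20 in LucOS. Their log2 fold changes there were 2.36 and 1.96, with DESeq2 adjusted p of 0.000577 and 4.36e-06.

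Akr1c13, a further hydroxysteroid dehydrogenase of the cluster, stood at 110.06, 85.94, 113.11 and 112.3 TPM in Luc tumours with Aoah and at 48.93, 61.65, 36.27 and 40.87 TPM in Luc tumours with vector. In the LucOS model it had 64.05, 63.77 and 78.34 TPM with Aoah and at 58.8, 63.41 and 50.68 TPM with vector, and the groups almost touched. The log2 change was 1.17 in Luc (SE 0.18, limma adjusted p = 0.000976) and 0.25 in LucOS (SE 0.21, limma adjusted p = 0.725). The change in LucOS less that in Luc was -0.92 (SE 0.28), with a limma p of 0.00495 before adjustment and 0.443 after it.

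Akr1c12, its close copy, stood at 67.41, 68.3, 51.26 and 68.16 TPM in Luc tumours with Aoah and at 42.84, 39.07, 44.34 and 39.23 TPM in Luc tumours with vector, with no overlap. LucOS tumours showed 59.03, 49.39 and 63.53 TPM with Aoah and at 26.2, 60.73 and 29.04 TPM with vector, and LucOS vector 2 lay among the tumours with Aoah. The log2 change was 0.60 in Luc (SE 0.23, limma adjusted p = 0.0644) and 0.65 in LucOS (SE 0.26, limma adjusted p = 0.312). In Luc it passed after quantile normalization (limma adjusted p = 0.0157) and in a fit of only the Luc groups (limma adjusted p = 0.0254). In LucOS it passed only when LucOS vector 2 was left out, with a log2 change of 1.02 (limma adjusted p = 0.0145). In the authors' deposited table Akr1c12 was called in Luc, with a log2 fold change of 0.90 and an adjusted p of 1.31e-05.

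Because reads of Akr1c12 and Akr1c13 can be divided wrongly, their sum was also formed. It stood at 177.47, 154.24, 164.37 and 180.46 TPM in Luc tumours with Aoah and at 91.77, 100.72, 80.61 and 80.1 TPM in Luc tumours with vector. In LucOS it stood at 123.08, 113.16 and 141.87 TPM with Aoah and at 85, 124.14 and 79.72 TPM with vector. The sum thus did not overlap in Luc and overlapped in LucOS, where LucOS vector 2 exceeded 2 of the tumours with Aoah.

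Over the other 8 members, 4 rose and 0 fell in Luc at a limma adjusted p under 0.05, against 7.93% of all 13466 genes tested that rose and 14.3% that fell. Their median log2 change was 0.89, against -0.24 over all genes. The Aoah and vector tumours did not overlap for 5 of the 8 members, Akr1c6, Akr1c12, Akr1c13, Akr1c14 and Akr1c20, against 20.9% of all genes. In LucOS, 3 members rose and 0 fell, against 0.75% of genes that rose and 0.215% that fell, and the median was 0.56 against -0.02. The groups did not overlap for 4 members, Akr1c6, Akr1c13, Akr1c14 and Akr1c20, against 12.3% of genes. The LucOS count was 1, Akr1c6, when LucOS Aoah 1, LucOS Aoah 3 or LucOS vector 3 was left out, and 4 without LucOS vector 2. All 4 risers in Luc lie in the Akr1c subfamily, and the authors' deposited table gave its 5 members log2 fold changes of 0.90 to 3.70 in Luc and 0.20 to 2.70 in LucOS.

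The Aoah effect itself was compared between the models. The difference of the effects was called for 0 of the 8 members by limma, 1 of which, Akr1c13, had an unadjusted p under 0.05. Over all genes, 0.00743% were called, which is 1 gene, and 1378 had an unadjusted p under 0.05. The difference was 0.26 for Akr1c14 (SE 0.62), -0.25 for Akr1c20 (SE 0.41), 0.05 for Akr1c12 (SE 0.35) and 0.69 for Akr1b10 (SE 0.45).

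**Figure D2:**
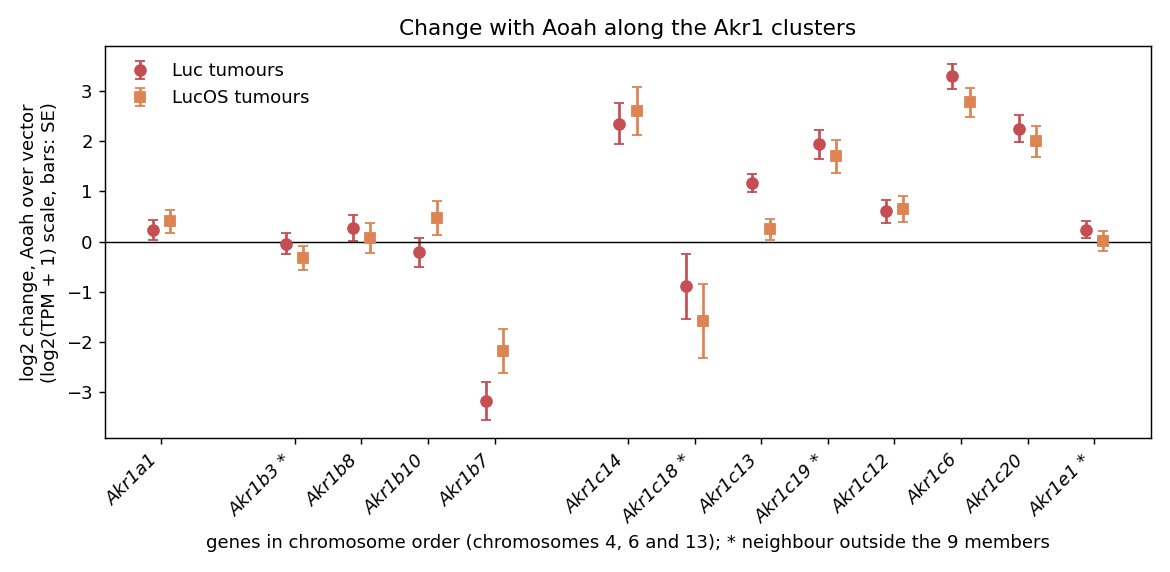
Log2 change with Aoah over vector on the log2(TPM + 1) scale for Luc and LucOS tumours, with SE bars, for the members and 4 neighbours in the order of the genes along chromosomes 4, 6 and 13. Akr1b7 stands lowest at -3.18 and -2.18, next to Akr1b10 at -0.21 and 0.47, and the values vary from gene to gene along the Akr1c cluster.

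The Akr1b and Akr1c genes lie in 2 clusters, with Akr1a1 apart on chromosome 4, and the order is that of the RefSeq annotation of GRCm38.p6. On chromosome 6 the order is Akr1b3, Akr1b8, Akr1b10 and Akr1b7. Akr1b3, aldose reductase itself, averaged 84.1 ± 10.7 TPM in Luc tumours with Aoah and 87.0 ± 16.3 TPM in Luc tumours with vector (SD, n = 4 each). Its log2 change was -0.04 in Luc and -0.33 in LucOS (limma adjusted p = 0.899 and 0.654). Among the 4 genes of this cluster, a large fall was therefore seen at Akr1b7, which was chosen for it.

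On chromosome 13 the order is Akr1c14, Akr1c18, Akr1c13, Akr1c19, Akr1c12, Akr1c6, Akr1c20, Akr1c21 and Akr1e1. Akr1c19, between Akr1c13 and Akr1c12, rose in both models, with a log2 change of 1.94 in Luc (SE 0.28, limma adjusted p = 0.00066) and 1.70 in LucOS (SE 0.33, limma adjusted p = 0.029). Akr1c18, the 20-alpha-hydroxysteroid dehydrogenase that inactivates progesterone, had log2 changes of -0.89 in Luc and -1.58 in LucOS and was not called (limma adjusted p = 0.295 and 0.407). In Luc its range was 0.18 to 0.67 TPM in the tumours given Aoah and 0.72 to 4.49 TPM in those given vector. In LucOS the ranges overlapped, 0.22 to 0.42 TPM in the tumours given Aoah and 0 to 17.32 TPM in those given vector. Akr1e1, at the end of the cluster, had changes of 0.24 and 0.02 and was not called. Akr1c14 and Akr1c13, on either side of Akr1c18, rose in Luc. Akr1c21 did not reach the level needed for testing.

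The make-up of Akr1 RNA differed between the groups. The summed TPM of the 9 members was 1583 to 2778 in Luc tumours with Aoah and 624 to 720 in Luc tumours with vector. In LucOS the sum was 1349 to 1852 with Aoah and 444 to 796 with vector. Akr1c6 made up 53.7 to 68.1% of the sum in Luc tumours with Aoah and 19.5 to 23.0% in Luc tumours with vector. In LucOS its share was 60.9 to 64.7% with Aoah and 17.8 to 34.2% with vector.

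Akr1a1 was number 1 by mean TPM in both vector groups and number 2, after Akr1c6, in both Aoah groups. Its share of the sum was 11.9 to 23.3% in Luc tumours with Aoah and 39.5 to 47.2% in Luc tumours with vector, although its own level did not pass the test. Akr1b7 was number 3 by mean TPM in both vector groups and number 7 in both Aoah groups. Its share was 0.267 to 0.432% in Luc tumours with Aoah and 7.47 to 17.1% in Luc tumours with vector, and in LucOS 0.716 to 1.77% with Aoah and 8.23 to 25.7% with vector. Akr1b10 and Akr1b8 were numbers 8 and 9 in all 4 groups.

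A ratio of genes within a tumour does not depend on how the library was scaled. Per TPM of Akr1b7 there were 124 to 255 TPM of Akr1c6 in Luc tumours with Aoah and 1.14 to 3.08 in Luc tumours with vector. In LucOS the ratio was 35.2 to 85.0 with Aoah and 0.694 to 4.15 with vector. The ratio uses the gene chosen for its fall and is a description.

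**Figure D3:**
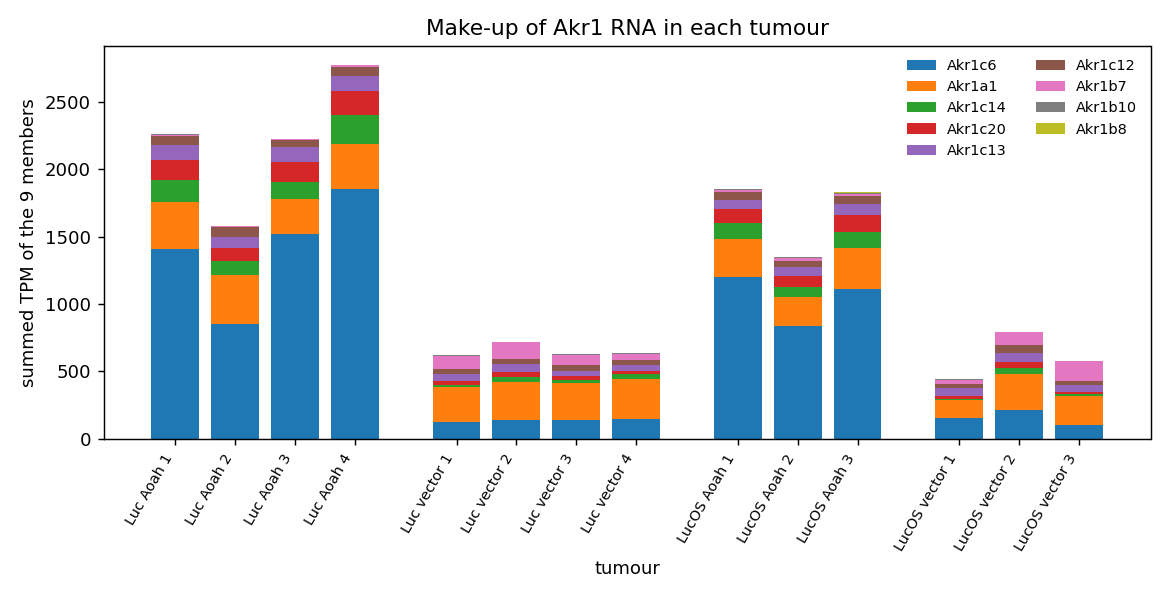
Summed TPM of the 9 members in each tumour, stacked by gene, on a linear axis from 0. Tumours with Aoah reach 1349 to 2778 TPM, mostly Akr1c6, against 444 to 796 TPM with vector, where Akr1a1 takes the most on average.

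LucOS tumours were also set against Luc tumours, to see whether the antigens went with another level of these genes. Akr1b7 is again described with no test, since its values in these tumours chose it. Among vector tumours limma called 0 of the other 8 members and 0% of all genes. Before adjustment 1 member, Akr1a1, and 1918 genes had a p under 0.05. Akr1a1 had a log2 change of -0.48, LucOS over Luc (SE 0.22, limma adjusted p = 0.344). Akr1b7 had almost the same mean in both vector groups, at 94.3 ± 56.4 TPM in LucOS (SD, n = 3) and 86.1 ± 32.0 TPM in Luc (SD, n = 4), and the groups overlapped. Akr1c6 had a change of 0.13 (limma adjusted p = 0.783) and Akr1c14 one of -0.74 (limma adjusted p = 0.357).

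Among tumours with Aoah, limma called 0 of the other 8 members and 0.0817% of all genes, which is 11 genes. Before adjustment 1 of these members, Akr1c13, and 944 genes had a p under 0.05. Akr1b7 averaged 17.7 ± 5.54 TPM in LucOS (SD, n = 3) and 8.33 ± 2.42 TPM in Luc (SD, n = 4), and the groups did not overlap. Its log2 change was 1.00 (SE 0.42). Akr1c13 had a change of -0.61 (SE 0.20), with a limma p of 0.00774 before adjustment and 0.492 after it. These 2 comparisons share tumours with the Aoah comparisons above, so they are not independent of them.

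To see whether the members vary together inside the groups, each tumour's log2(TPM + 1) was taken as a deviation from its group mean over the 14 tumours. The points share library scaling and RNA composition, so the correlations are descriptions. Akr1c6 and Akr1c20 had Pearson r = 0.90, Akr1c14 and Akr1c20 0.88, Akr1c12 and Akr1c14 0.83, and Akr1c6 and Akr1c14 0.78. Of the 10 pairs of Akr1c members, 6 were above 0.5, within a range of 0.12 to 0.90. LucOS vector 2 was the highest LucOS vector tumour for Akr1a1 and all 5 Akr1c members. Over the 13 other tumours, 4 of the 10 pairs were above 0.5, and r was 0.86 for Akr1c6 with Akr1c20, 0.77 for Akr1c14 with Akr1c20 and 0.30 for Akr1c12 with Akr1c14.

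Akr1b7 had r between -0.34 and 0.35 with the other 8 members, none above 0.5. The fall of Akr1b7 and the rise of Akr1c6 thus stood side by side between the groups, while within the groups their r was -0.14. Akr1a1 and Akr1c12 had r = 0.79, and 0.72 without LucOS vector 2.

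**Figure D4:**
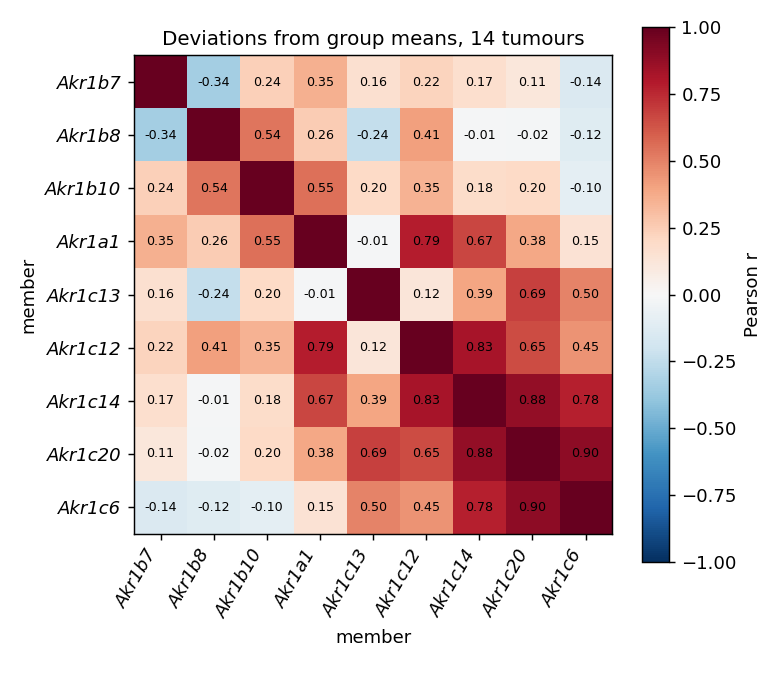
Pearson r between members of the deviations of log2(TPM + 1) from the group means, over 14 tumours, on a colour scale from -1 to 1. The block of Akr1c14, Akr1c20 and Akr1c6 holds the values 0.78, 0.88 and 0.90, and the row of Akr1b7 has none above 0.5.

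The same measure was taken between each member and other tested genes. The members themselves, mitochondrial genes and genes with predicted or accession-like names were left out of this search. Among the genes searched, those most like Akr1b7 were Ppib (r = 0.93), Tmem169 (0.88) and Sgpp2 (0.88). Ppib codes for the endoplasmic reticulum cyclophilin B, and Sgpp2 is a phosphatase of sphingosine phosphate. The genes most like Akr1c6 were Aspn, Bmp2 and Mgst1 (0.85 each), the last a microsomal glutathione transferase. Those most like Akr1c14 were Baat, which joins bile acids to amino acids, and Hpgd, which inactivates prostaglandins (0.96 each). Akr1c20 was most like Ugt2b36 (0.92), a glucuronosyltransferase, and Akr1c13 most like Fhit (0.83). Akr1a1 was most like Dcaf11 and Upb1 (0.99 each), and Akr1c12 most like Dpys (0.97); Upb1 and Dpys act in pyrimidine breakdown. Akr1b10 was most like Mx2 and Btk (0.97 each), an interferon-induced gene and a kinase of B and myeloid cells, and Akr1b8 most like Eepd1 (0.94). LucOS Aoah 3 was the outlying tumour for Akr1b10, and without it r was 0.88 with both Mx2 and Btk. Other values also moved when 1 tumour was left out. Without LucOS vector 1, r with Akr1b7 was 0.89 for Ppib, 0.75 for Tmem169 and 0.73 for Sgpp2. Without Luc vector 2, r of Akr1c13 with Fhit was 0.70. For Akr1c14 with Baat, r was 0.85 without LucOS vector 2, while its lowest r with Hpgd was 0.95, without LucOS vector 1. Some of these genes were low: Sgpp2 averaged 0.09 TPM in Luc and 0.11 TPM in LucOS tumours with Aoah, and Aspn reached at most 1.29 TPM. With so many genes and 14 tumours, high values of r arise easily.

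Other enzymes of the same substrates were counted from lists written for this purpose, with values of these data already known. The counts stand against 7.93% of all genes that rose and 14.3% that fell in Luc, and 0.75% that rose and 0.215% that fell in LucOS. Of 6 further aldo-keto reductases tested, 1 rose and 0 fell in Luc, and 1 rose and 0 fell in LucOS, Akr1c19 in both; the list's median log2 change was 0.08 in Luc and 0.03 in LucOS. Akr1d1, the 5-beta-reductase of bile acid synthesis, had a log2 change of 0.21 in Luc and 0.05 in LucOS, and Akr7a5 one of -0.10 in Luc and 0.86 in LucOS (limma adjusted p = 0.397); neither was called. Of 18 alcohol and aldehyde dehydrogenases, 2 rose and 0 fell in Luc, a share near that of all genes. They were Adh4, which rose by 2.45, and Aldh1a1, a retinaldehyde dehydrogenase, which rose by 2.09 (limma adjusted p = 0.000127 and 0.00619). In LucOS 0 of these 18 were called by limma at an adjusted p under 0.05, with log2 changes of 1.26 for Adh4 and 2.05 for Aldh1a1 (limma adjusted p = 0.0858 and 0.07). The list's median was -0.06 in Luc and 0.47 in LucOS.

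Of 22 carbonyl reductases and short-chain dehydrogenases, 6 rose and 1 fell in Luc, and 1 rose and 0 fell in LucOS. Hsd11b1, which makes active glucocorticoid in liver, rose in both models, by 2.76 in Luc and 2.14 in LucOS (limma adjusted p = 0.000215 and 0.0229). The other 5 that rose in Luc were Hsd17b2, which inactivates estradiol and testosterone (1.16), Cbr1, a carbonyl reductase (0.98), Hsd3b2 (0.97), Hsd3b7, of bile acid synthesis (0.93), and Hsd17b10 (0.49). Hsd17b11 fell, with a change of -0.68. The list's median was 0.26 in Luc and 0.49 in LucOS.

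Of 9 genes of the polyol and uronate pathway, 4 rose and 0 fell in Luc: Sord, sorbitol dehydrogenase, by 0.94, Khk, ketohexokinase, by 0.82, Ugdh by 1.40 and Ugp2 by 1.09. In LucOS 1 rose, Khk, by 1.30 (limma adjusted p = 0.033), and 0 fell. The list's median was 0.60 in Luc and 0.75 in LucOS. Of 8 genes of NADPH supply, Idh1 rose by 0.81 and H6pd, which makes NADPH in the endoplasmic reticulum, had a change of -1.35 and fell in Luc, and 0 of them were called in LucOS. That list's median was -0.24 in Luc, close to that over all genes, and 0.17 in LucOS.

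Of 14 nuclear receptors and regulators, 1 rose and 3 fell in Luc. Nr1h3, the oxysterol receptor LXR alpha, rose by 0.61, while Nr0b2, the bile acid-induced repressor SHP, had a change of -1.95, Rxra, the common partner of these receptors, -1.88, and Foxa2 -0.88 (limma adjusted p = 0.0256, 0.00222, 0.0151 and 0.0399). In LucOS 0 of the 14 were called, with a change of -0.97 for Nr0b2 (limma adjusted p = 0.324). Among receptors known to act on Akr1b7 in liver, Nr1i2 (PXR) had a log2 change of -0.69 in Luc, Nr1i3 (CAR) 0.18 and Nr1h4 (FXR) 0.15, none of them called (limma adjusted p = 0.113, 0.608 and 0.633). In LucOS these changes were -0.00, 0.54 and 0.82, and none was called. The list's median was -0.60 in Luc and 0.12 in LucOS. Their part in the level of Akr1b7 was not tested.

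Markers of cell types were read beside these results. Of 9 hepatocyte markers tested, Alb rose by 1.41 and Ttr by 1.40 in Luc, and Ahsg fell, with a change of -1.09. In LucOS Ttr rose by 1.78 and 0 fell. The summed TPM of these markers was 10318 to 28505 in Luc tumours with Aoah and 12080 to 15870 in Luc tumours with vector, and 12235 to 24457 in LucOS tumours with Aoah and 8098 to 13642 in LucOS tumours with vector. The sums overlapped in both models, and none of the 9 markers was at 0 in every tumour.

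Of 5 biliary and progenitor markers, 0 rose and 3 fell in Luc, Sox9, Prom1 and Cd24a, and Prom1 fell in LucOS. The sum over all 8 listed biliary and progenitor markers was 62.4 to 114 TPM in Luc tumours with Aoah and 66.7 to 128 TPM in Luc tumours with vector, and 38.9 to 66.2 TPM in LucOS tumours with Aoah and 71.0 to 160 TPM in LucOS tumours with vector. Among immune and stromal markers, some members of each list were called in Luc. Of 8 macrophage markers 3 rose, of 7 T cell markers 4, of 3 B and plasma cell markers 3, of 7 fibroblast and stellate markers 4 and of 8 endothelial markers 4, against 7.93% of all genes, and 0 fell. Of 5 neutrophil markers 4 fell, against 14.3% of all genes, and 0 rose. In LucOS 2 T cell markers rose, and 0 of the macrophage, B and plasma cell, fibroblast, endothelial and neutrophil markers were called.

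The summed T cell markers stood at 40.4 to 72.2 TPM in Luc tumours with Aoah and 4.75 to 14.4 TPM in Luc tumours with vector, and at 46.7 to 129 TPM in LucOS tumours with Aoah and 11.4 to 29.8 TPM in LucOS tumours with vector. The summed macrophage markers stood at 444 to 470 TPM in Luc tumours with Aoah and 147 to 237 TPM in Luc tumours with vector, and overlapped in LucOS. The sum over all 6 listed neutrophil markers stood at 49.7 to 97.9 TPM in Luc tumours with Aoah and 122 to 378 TPM in Luc tumours with vector, and overlapped in LucOS. The sum over all 8 listed fibroblast and stellate markers stood at 107 to 172 TPM in Luc tumours with Aoah and 33.5 to 63.1 TPM in Luc tumours with vector, and at 97.5 to 223 TPM in LucOS tumours with Aoah and 59.0 to 66.5 TPM in LucOS tumours with vector. The endothelial sum was 23.6 to 43.1 TPM in Luc tumours with Aoah and 7.23 to 25.8 TPM in Luc tumours with vector. The endothelial sums also overlapped in LucOS. The part of these cells in the change of any Akr1 member was not tested.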

How the data were processed

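Tumours were grouped by their labels. Poly(A) RNA was captured and sequenced, per the labels' protocols; whether the libraries were directional was not stated, so reads of overlapping antisense genes could be mixed. RSEM, DESeq2 and mm39 are named in the submitters' processing notes, with no version; no aligner is named in the sources used here. The authors deposited log2 values of TPM + 1 for 29923 genes in 14 samples, so depth, and hence counting error, is unknown. The authors' deposited tables of comparisons hold log2 fold changes, their standard errors (held as a score), and p-values; the direction followed from the sign of Aoah's own change. Names came from GENCODE M21 (GRCm38) for 26761 of 28026 and 25742 of 26939 identifiers, and RefSeq GRCm38.p6 gave gene order and promoters.

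Genes at 1 TPM or more in at least 3 tumours (13466) were tested on log2(TPM + 1) with limma 3.58.1 (R 4.3.3), with 1 mean per group over all 14 tumours, robust moderated variances with a trend, and Benjamini-Hochberg adjustment over all genes at 0.05. Changes are in log2(TPM + 1) and understate those of low genes. Transcript identity used local alignment of the longest protein-coding transcript per gene. Every member was named, with up to 3 genes with the highest r. From the lists, genes that passed or had the smallest p (at most 4 per list) could be named, along with some uncalled ones. Markers of immune and stromal cells that passed were given as counts only. The members and lists were chosen with earlier results of these data known. Alternatives were a pseudocount of 0.1, no filter or one at 5 TPM, quantile normalization, rescaling without mitochondrial and small RNA genes, no trend, a replicate block, only the groups compared, and tumours left out. A deposited receptor repertoire table was not used. The summed level of the B and plasma cell markers is not reported here.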

Additional observations from a re-analysis of the deposited data

Results flagged for a closer look

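Among 18 groups of 4 tumours (9 members in each Luc group), 3 held a tumour far from the other 3. Chance alone flags about 1 group in 20 where groups are independent. These groups were not independent, since the 9 members were read in the same tumours, so the count cannot be set against that rate. Gaps and ranges were taken on the log2(TPM + 1) scale. Akr1b10 was lowest in Luc Aoah 3, at 2.14 TPM, where the gap to the next tumour was 0.947 of the whole range. Akr1c12 was lowest in the same tumour, at 51.26 TPM, with a gap of 0.954 of the range. This tumour also had the highest share of small RNA genes, 9.28% of the TPM; its part in both values was not tested. Akr1c13 was lowest in Luc Aoah 2, at 85.94 TPM, with a gap of 0.900 of the range. Luc Aoah 2 was also the lowest of its group for Akr1c6, Akr1c14 and Akr1c20. The call of Akr1c13 in Luc was kept, and Akr1c12 stayed uncalled, whichever of these tumours was left out.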

How the results depend on the processing

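Over 809 alternative values of single members, 790 were unchanged, 16 lost a call, 3 gained one and 0 called values changed sign. For a tested member, unchanged means the same side of the threshold. Akr1b7 had no test in the Aoah comparisons and their difference, so there it means a kept sign and a shift below the pooled SD within groups. In both antigen comparisons this tally used an adjusted p for Akr1b7 too, although its values chose it. In Luc the number of the other 8 members called was 4, and 3 to 5 under the alternatives. In LucOS it was 3. It was 1, Akr1c6, with no filter on low values, with only the LucOS groups and with Luc Aoah 3 and LucOS Aoah 3 left out together. The LucOS count ranged from 1 to 4 when 1 tumour was left out. Why it moved was not tested. The differences between models and both antigen comparisons stayed at 0 of the other 8 members. Akr1b7 ranged from -3.43 to -2.98 in Luc and from -2.74 to -1.74 in LucOS. Uncalled members could change sign: Akr1b8 in LucOS ranged from -0.20 to 0.25, and Akr1b10 in Luc from -0.28 to 0.05. Akr1b8 and Akr1b10 gave no value with the filter at 5 TPM, and the difference between models has no fit of only 2 groups.

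Counts over all genes moved more. In Luc, 2988 were called (1068 higher and 1920 lower), and 355 to 5251 under the alternatives: 1288 with no filter, and 855 (without Luc Aoah 4) to 5251 (without Luc Aoah 2) with 1 tumour left out. In LucOS, 130 were called (101 higher and 29 lower), and 6 (only its groups) to 353 (without LucOS vector 2). The difference between models gave 1, and 0 to 2 under the alternatives, and the antigen comparison among Aoah tumours gave 11 against 27 after quantile normalization. That normalization moved the median of all genes by 0.18 in Luc, -0.04 in LucOS, -0.21 for the difference between models and 0.22 for the antigen comparison among vector tumours, and gave 1685 genes higher and 2778 lower in Luc, and 177 higher and 79 lower in LucOS. Same-numbered tumours of the same model had deviations correlated from -0.55 to 0.10. These correlations cannot show whether tumours with the same number shared an animal or a batch. The replicate block gave 1168 calls over all genes in Luc and 34 in LucOS, and left 4 and 2 members called.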
